A study of Mus musculus with 2 samples.

Results

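Cytosolic ribosomal protein genes were examined in single cells of the mouse ocular area, from 1 wild-type embryo and 1 *Mab21l1*-null (KO) embryo. Both embryos were C57BL/6J at the 26-somite stage (E9.25), and each gave 1 library made with the 10x Chromium 3′ system, which tags every captured transcript with a cell barcode and a unique molecular identifier (UMI). The members were all genes of the deposited matrices whose symbol was Rpl or Rps followed by a digit, Rplp0 to Rplp2 or Rpsa, without symbols holding -ps and without the Rps6k kinases. This rule gave 87 of 27998 gene identifiers, 53 of them with large subunit and 34 with small subunit symbols. They lay on 19 chromosomes, 4 members were X-linked, and 10 were paralogs, retrocopies or genes with a suffix to a ribosomal protein symbol. The rule took in *Rps19bp1* and *Rpl7l1*, which are not core ribosomal proteins, and did not take in *Fau*, whose product carries a ribosomal protein fused to a ubiquitin-like protein.

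The cytosolic ribosome is built from a small and a large subunit, each an rRNA scaffold bound by ribosomal proteins that are present in nearly equal numbers. The proteins are made in the cytoplasm, imported into the nucleolus, assembled on rRNA and exported as subunits. Most of their mRNAs are short, very abundant and start with a C followed by a run of pyrimidines, the 5′ terminal oligopyrimidine (TOP) motif, through which mTOR signalling adjusts their translation. Since the mRNAs are so numerous, their share of all transcripts is often used as a broad readout of cell state in single-cell data.

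Start sites are shown for the members that differed most between the libraries and had an entry in the RefSeq promoter table of GRCm38.p6. Each line holds the 15 bases before and the 15 bases from the annotated start, 5′ to 3′ on the strand of the gene, and capitals mark the pyrimidines that run on from the first base of the transcript. The windows are chr17:33824548-33824577 (minus) for *Rps28*, chr3:90213634-90213663 (minus) for *Rps27*, chr9:114982725-114982754 (minus) for *Rps27rt*, chr11:114668565-114668594 (plus) for *Rpl38*, chr11:101442230-101442259 (plus) for *Rpl27* and chr10:128549154-128549183 (minus) for *Rpl41*.
Rps27: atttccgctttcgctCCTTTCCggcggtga
Rps27rt: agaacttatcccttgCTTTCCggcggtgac
Rpl38: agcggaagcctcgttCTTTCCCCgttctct
Rps28: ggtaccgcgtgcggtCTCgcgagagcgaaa
Rpl27: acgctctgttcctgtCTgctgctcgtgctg
Rpl41: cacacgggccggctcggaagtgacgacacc

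*Rps27*, its copy *Rps27rt* and *Rpl38* began with a C and at least 4 further pyrimidines, whereas *Rps28*, *Rpl27* and *Rpl41* did not at these annotated starts. Of the 87 members, 66 had a start window, and 14 of these (21.2%) began with a C and 4 pyrimidines, against 813 of 27025 genes (3.01%) in the whole table. None of 68 mitochondrial ribosomal protein genes with a window and 3 of 11 genes of a translation factor list did so. The letters CTTTCC stood anywhere in the 30-base window, on the strand of the gene, in 11 of 66 members (16.7%) and in 451 of 27025 genes (1.67%), and on the other strand in 0 of 66 members and 401 genes (1.48%). These letters can overlap the run at the start, a match is no measure of use, and annotated starts can lie away from the true one. In the GENCODE M21 annotation the gene starts of some members lay outside these windows. The gene of *Rpl41* began at chr10:128549305 (minus), that of *Rpl38* at chr11:114668524 and that of *Rpl27* at chr11:101442298. The gene of *Rps2* began at chr17:24718116, with its window at chr17:24720048-24720077. The counts of starts with a run thus rest on the RefSeq starts alone.

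The filters of the study kept 1680 WT cells (41880035 UMIs, median 21037 per cell) and 2404 KO cells (52430844 UMIs, median 18135 per cell). The 2 libraries shared 15 cell barcodes. Cells were placed in 7 classes by counting detected marker genes, so that 1243 WT and 1829 KO cells belonged to a single class. The classes ran from 30 and 25 neural crest-like cells to 521 and 805 optic vesicle-like cells. Cells that met several gates (170 and 195) were left out as possible doublets. Among the 10 leading genes of each class, 3 to 5 were its own markers and none was a marker of another class. All markers were at least 2-fold above the other gated cells in both libraries, except in forebrain neural ectoderm-like cells, where this held for 5 of 9. The cells were gated by these same markers, so these counts are no independent check of the class names. RNA of *Mab21l1*, the disrupted gene, was counted in both libraries and was higher in the one labelled KO (597 UMIs and 19.6 UMIs per 1000000, CPM, against 1292 UMIs and 32.5 CPM over all gated cells). It was higher in optic vesicle-like cells, with 509 UMIs in WT and 1205 in KO (log2 ratio 0.79 [0.64, 0.94]), and lower in ectoderm-like cells, with 61 and 25 UMIs (71.0 and 41.6 CPM, −0.77 [−1.50, −0.08]). The pooled value and that of the ectoderm-like cells thus lay in opposite directions. Whether the disrupted gene still gives RNA was not tested, so these levels do not decide whether the labels are right. WT and KO below mean the libraries as labelled. Each genotype rests on 1 embryo, so no test between genotypes was possible and none is given. Square brackets give 95% intervals that cover counting error only, exact binomial for shares and conditional exact binomial for ratios.

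Ribosomal protein genes took about 3 in 10 UMIs in both libraries, 30.28% of all UMIs in WT and 30.49% in KO. The share differed little between the libraries in most classes. In ectoderm-like cells, the class that holds the lens placode in which the study places the *Mab21l1*-null defect, it was 29.84% [29.75, 29.94] in WT and 29.82% [29.70, 29.93] in KO. The log2 ratio of the shares was −0.001 there, with a counting interval from −0.010 to 0.007. This interval covers counting error only, and the difference of −0.03 points moved with the choice of cells and summary, to −0.62 with 1 more marker in the gate, to −0.41 by the median over cells and to 0.26 with all deposited barcodes.

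The share was higher in KO in optic vesicle-like cells, with 30.65% in WT and 31.61% in KO, a difference of 0.958 percentage points. It was lower in KO in neural crest-like cells, with 34.42% in WT and 32.01% in KO, a difference of −2.41 points over 30 and 25 cells. In these cells the cells from the lower to the upper quartile ran from 31.99% to 36.89% in WT and from 28.96% to 34.43% in KO, so the ranges overlapped. KO minus WT was −1 point in forebrain neural ectoderm-like, −0.421 in erythroid-like, −0.254 in endothelium-like and −0.241 in mesenchyme-like cells. The sizes of these depended on how cells were summarised. In erythroid-like cells the difference was −1.23 points by the median over cells and −0.92 after every cell was thinned to 6000 UMIs. It was −0.28 when mitochondrial and globin UMIs were left out of the total. In forebrain neural ectoderm-like cells it was −0.63 by the median and −0.60 with 1 more marker in the gate, and thinning brought it to −0.13 in endothelium-like and −0.12 in mesenchyme-like cells. Each of the differences in summed share was smaller than the distance between the quartiles of single cells within a library, which lay at 28.93% and 32.11% in WT optic vesicle-like cells, for example.

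Within the ectoderm-like cells, the lens placode-like subset had 29.63% in WT (21 cells) and 30.61% in KO (14 cells), and the surface ectoderm-like subset 30.06% in WT (24 cells) and 29.30% in KO (23 cells). The 2 subsets thus differed from WT in opposite directions, by 0.984 and −0.759 points, on these small numbers of cells. The subsets were split by detected markers, among them *Pax6*, *Six3* and *Pitx3*, which the paper reports as lower in KO. *Fermt1* and *Limch1*, which it reports as higher, were markers of the surface ectoderm-like subset. Which cells fall in a subset may therefore differ by genotype, and this was not tested. Depth differed alongside: the median UMI count per cell was 17929 in WT and 16027 in KO ectoderm-like cells, and 26527 and 22528 in optic vesicle-like cells. When every cell was thinned to 6000 UMIs, no cell had to be left out and the share was again higher in KO only in optic vesicle-like cells among the 7 classes, by 0.81 points. Thinning at random keeps the expected share of each cell and gives all cells equal weight. It therefore cannot show whether depth had a part in the differences, which was not tested.

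**Figure D1:**
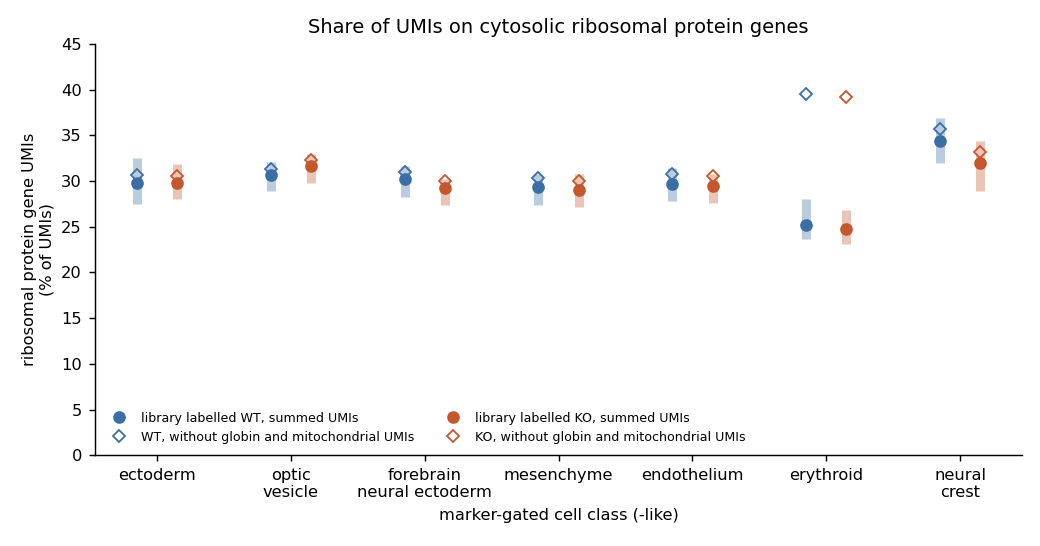
Share of UMIs on the 87 ribosomal protein genes (y axis, percent of UMIs) in 7 marker-gated cell classes (x axis), for the library labelled WT (blue) and KO (orange). Filled points are the summed share, pale bars the range between the quartiles of single cells, and open diamonds the share after globin and mitochondrial UMIs were taken out of the total. Erythroid-like cells are lowest as deposited (25.17% and 24.75%) and highest without globin (39.49% and 39.21%).

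The order of the classes was alike in both libraries at its ends. Neural crest-like cells had the highest share in each library (34.42% and 32.01%), and erythroid-like cells the lowest (25.17% and 24.75%). Globin genes took 34.24% and 34.87% of the UMIs of erythroid-like cells. When globin and mitochondrial UMIs were left out of the total, the share of erythroid-like cells was 39.49% in WT and 39.21% in KO, the highest of all classes, so the direction for these cells depends on the denominator. Between these ends, the WT shares of the other 5 classes lay between 29.31% and 30.65%. In KO they lay between 29.07% and 31.61%, and the direction against the other gated cells was the same in both libraries in 6 of 7 classes. The exception was forebrain neural ectoderm-like cells, at 30.20% against 29.97% in the other cells of WT and 29.20% against 30.34% in those of KO. Per cell, the summed member UMIs came to 9085.1 in WT and 8293.9 in KO optic vesicle-like cells and to 5694.9 and 4752.1 in mesenchyme-like cells, beside mean totals of 29637.4 and 26236.2, and of 19427.2 and 16345.3 UMIs.

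Single members hardly distinguished the classes. No member of 588 member-class pairs with at least 30 UMIs was 2-fold higher or lower in a class than in all other gated cells in both libraries, whereas 12.4% of gene-class pairs over all genes were. The pairs over all genes include the markers that gated the classes and many genes with far fewer UMIs than the members. The same holds for the shares of all genes in the class comparisons below. The median member varied 1.44-fold between its highest and its lowest class in WT and 1.43-fold in KO. Among the steadiest was *Rpl13*, of the large subunit, at 5310 to 6019 CPM in WT and 5467 to 6111 CPM in KO. CPM here counts 3′ ends of transcripts and is not divided by transcript length.

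The widest range belonged to *Rpl7l1*, a paralog of *Rpl7*, with 73.3 to 176 CPM in WT and 80.5 to 170 CPM in KO. It was lowest in erythroid-like and highest in forebrain neural ectoderm-like cells in both libraries. *Rps26*, of the small subunit at the mRNA exit, ranged from 1874 to 3876 CPM in WT and from 1774 to 3390 CPM in KO.

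Erythroid-like cells, in which haemoglobin transcripts fill much of the RNA, stood apart most. At 1.5-fold, a size chosen after seeing that no member reached 2-fold, 10 of 84 members were lower there in both libraries, against 50.4% of all genes. They were *Rpl37a*, *Rps21*, *Rps26*, *Rps27*, *Rps27l*, *Rps27rt*, *Rps28*, *Rps29*, *Rps19bp1* and *Rpl7l1*. *Rps28* measured 1618 CPM in erythroid-like and 2744 CPM in the other WT cells, and 1079 and 2065 CPM in KO, log2 ratios of −0.76 and −0.94. *Rps21* measured 1280 against 2288 CPM in WT and 1059 against 1991 CPM in KO. Against a total without mitochondrial, globin and ribosomal protein UMIs, none of the 84 was 1.5-fold lower, 28 were 1.5-fold higher (25.4% of all genes were) and 1 member, *Rpl36al*, was 2-fold higher (14.8% of all genes were). The members thus kept unequal levels relative to one another in erythroid-like cells, while their direction against the rest depended on what they were divided by.

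The order of the members in this contrast was much alike in the 2 embryos. Across the 84 members, the log2 ratio of erythroid-like to other cells had a Pearson correlation of 0.97 between the libraries, and the other classes gave 0.72 (neural crest-like) to 0.94 (forebrain neural ectoderm-like). These are correlations across genes, which are not independent replicates, and both libraries were counted in the same way. In the 6 classes other than erythroid-like, 4 of 504 member-class pairs lay at least 0.32 higher on the log2 scale in both libraries (21% of pairs over all genes) and 4 lay as far lower (13.6%), and all are named here although they were chosen after their values were seen.

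The higher ones were *Rps10* in optic vesicle-like cells (2968 against 2289 CPM in WT, 3217 against 2494 in KO), *Rps26* in mesenchyme-like cells (3663 against 2705, and 3390 against 2552), *Rps27l* in forebrain neural ectoderm-like cells (1552 against 1226, and 1545 against 1152) and *Rplp0* in neural crest-like cells. *Rplp0*, which forms the base of the stalk of the large subunit and served as the qPCR normaliser of the study, measured 7856 CPM in neural crest-like and 5646 CPM in other WT cells, and 7643 and 5656 CPM in KO. The lower ones were *Rplp1*, another stalk protein, in ectoderm-like cells (4863 against 6723 CPM in WT, 4830 against 6623 in KO), *Rps27l* in ectoderm-like cells (967 against 1247, and 899 against 1172), *Rps4x* in forebrain neural ectoderm-like cells (2716 against 3468, and 2931 against 3721) and *Rpl7a* in endothelium-like cells (1228 against 1884, and 1363 against 1972). In each of these 8 pairs both embryos lay on the same side, which is how the pairs were chosen.

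**Figure D2:**
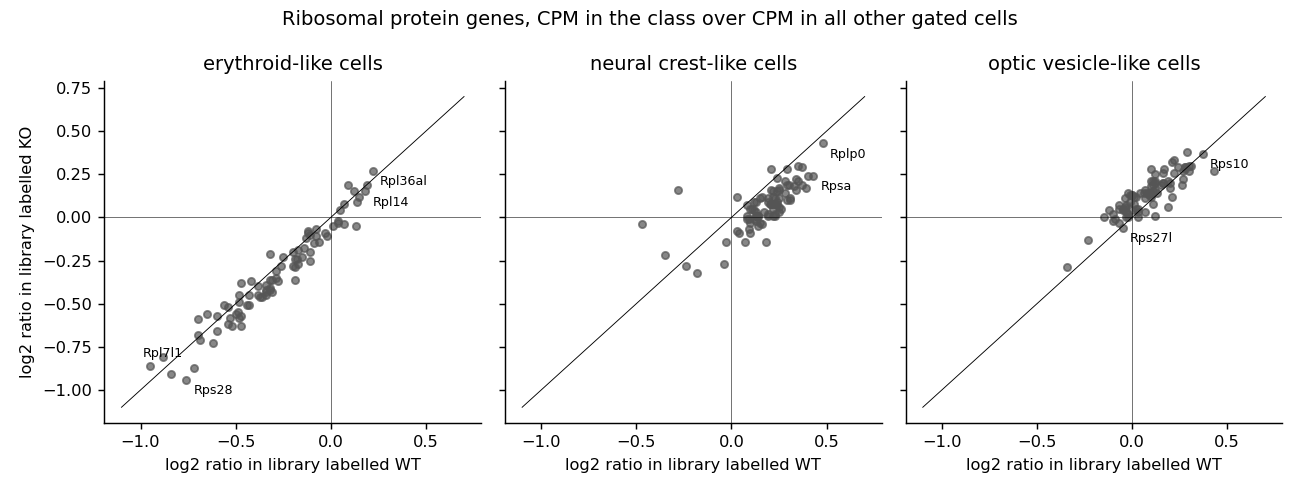
Log2 ratio of CPM in a class to CPM in all other gated cells, in the library labelled WT (x axis) and KO (y axis), for erythroid-like, neural crest-like and optic vesicle-like cells. Each point is 1 of 84 ribosomal protein genes and the line marks equal values. Points follow the line most closely in erythroid-like cells (Pearson correlation 0.97), and neural crest-like points lie mostly below it.

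Between the libraries, most members had nearly the same small ratio, and a group of exceptions lay below the others. The median log2 ratio of CPM, KO over WT, of the 84 members with at least 100 UMIs was 0.03 in ectoderm-like, 0.06 in optic vesicle-like, −0.01 in forebrain neural ectoderm-like, 0.03 in mesenchyme-like, 0.04 in endothelium-like, 0.02 in erythroid-like and −0.06 in neural crest-like cells. The medians over all genes tested in the same classes were 0.02, 0.01, 0.03, 0.00, 0.01, −0.01 and 0.06. The quartiles of the members were −0.01 and 0.11 in optic vesicle-like and −0.07 and 0.08 in ectoderm-like cells. The 3 remaining members had too few UMIs: *Rpl39l* had 2 UMIs in WT and 8 in KO over all gated cells, and *Rpl10l* and *Rpl3l*, paralogs known from testis and muscle, had 0 in both.

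The most abundant members shared these small differences, with 1 exception. *Rps2* was at 7700 CPM in WT and 7932 CPM in KO over all gated cells, *Rps23* at 6733 and 6812, *Rplp1* at 6671 and 6596, and *Rps19*, the gene most often mutated in Diamond-Blackfan anaemia, at 6186 and 6560. *Rplp0* was at 5683 and 5675 CPM, a log2 ratio of −0.00 [−0.01, 0.01], and its ratio lay between −0.07 and 0.04 in the 7 classes. *Rpl41*, the most abundant member and the smallest protein of the large subunit, was the exception, at 10611 CPM in WT and 8359 CPM in KO.

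A member was called outlying where its ratio was at least 0.32 on the log2 scale from the median member of the class. By this size, 4 of 84 members were lower than the rest in ectoderm-like cells and none higher, beside 13.7% and 11.2% of all genes. The counts were 5 lower in optic vesicle-like cells (7.53% of all genes), 6 in forebrain neural ectoderm-like (6.73%), 8 in mesenchyme-like (8.4%), 9 in endothelium-like (12.7%), 8 in erythroid-like (12%) and 9 in neural crest-like cells (6.04%). Members outlying above the median numbered 0 in optic vesicle-like (2.92% of all genes), forebrain neural ectoderm-like (11.7%), mesenchyme-like (4.6%) and erythroid-like cells (5.54%), 1 in endothelium-like (6.67%) and 2 in neural crest-like cells (22%).

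The share of outlying members, 4.76% to 10.7% lower by class, was near or under that of all genes tested in every class but neural crest-like cells. It was slightly above in forebrain neural ectoderm-like (7.14% against 6.73%) and mesenchyme-like cells (9.52% against 8.4%). In neural crest-like cells it was 10.7% against 6.04%. Most other genes had far fewer UMIs and so larger counting error. The median member had 134710 UMIs in optic vesicle-like cells over both libraries, against 728.5 for the other genes tested, and 76 of the 84 members had at least 1000 UMIs in every class.

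In a further comparison the members needed at least 100 UMIs in the class and the other genes at least 1000, so members with few UMIs stayed in. *Rpl6l* (202 UMIs in WT and 174 in KO) and *Rps27rt* (248 and 206) were among the lower members of forebrain neural ectoderm-like cells. With these unlike limits, the share of lower members was above that of the others in 6 of 7 classes. It was 9.52% against 4.13% of 2908 others in mesenchyme-like, 10.7% against 4.74% of 506 in endothelium-like, 9.52% against 4.97% of 181 in erythroid-like, 7.14% against 3.56% of 309 in forebrain neural ectoderm-like and 10.7% against 1.85% of 54 in neural crest-like cells. The shares were close in optic vesicle-like cells (5.95% against 5.31% of 4141) and in ectoderm-like cells (4.76% against 4.96% of 121). Over all gated cells, 9 members (10.7%) were lower and 0 higher, beside 6.78% and 2.34% of all genes, and beside 3.47% and 0.346% of the 6366 others with at least 1000 UMIs.

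Much the same members were outlying in several classes. Of 13 members outlying in any class, 9 were so in at least 3 of the 7 classes, and all 9 were lower in KO than in WT in 7 of 7 classes. The counting intervals of *Rps27rt* in ectoderm-like and of *Rpl6l* in erythroid-like cells nevertheless reached above 0. Of all 982 genes with at least 100 UMIs in each class, 4.07% were lower than the median member by the set size in at least 3 classes, and of the 898 that were no members 3.45% were, beside 10.7% of the 84 members. With at least 1000 UMIs in each class, these were 5.74% of 122 genes, 6 of 76 members and 1 of 46 others. The lower direction was taken after the members were seen. Counted in either direction, at 100 UMIs, 5.79% of the 898 others were outlying in at least 3 classes, beside the same 10.7% of members. The 9 members were *Rps28*, *Rps27*, *Rps29* and *Rps27rt* of the small subunit symbols and *Rpl41*, *Rpl27*, *Rpl36*, *Rpl38* and *Rpl6l* of the large subunit symbols. The classes are parts of the same 2 libraries, so they are no replicates of the difference.

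*Rps28*, a small subunit protein near the mRNA exit channel, was outlying in all 7 classes. Its level in WT and KO was 2613 and 1981 CPM in ectoderm-like, 2682 and 2113 in optic vesicle-like, 2819 and 2166 in forebrain neural ectoderm-like, 2750 and 1949 in mesenchyme-like, 3168 and 2172 in endothelium-like, 1618 and 1079 in erythroid-like and 3077 and 2050 CPM in neural crest-like cells. The log2 ratio thus ran from −0.34 [−0.36, −0.32] in optic vesicle-like to −0.59 in erythroid-like [−0.68, −0.49] and neural crest-like cells [−0.71, −0.46].

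*Rpl41* was outlying in 6 classes and narrowly missed the size in neural crest-like cells. It measured 9052 CPM in WT and 6956 CPM in KO ectoderm-like cells, 9776 and 8006 in optic vesicle-like, 12078 and 9481 in forebrain neural ectoderm-like, 12066 and 9207 in mesenchyme-like, 11873 and 8855 in endothelium-like, 7381 and 5529 in erythroid-like, and 11798 and 9095 CPM in neural crest-like cells. Its log2 ratio stayed between −0.42 and −0.29.

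*Rps27*, a zinc-finger protein of the small subunit, lay at 3716 and 2878 CPM in WT and KO ectoderm-like cells, a log2 ratio of −0.37 [−0.45, −0.28]. It was outlying in 5 classes, and its smallest difference was in optic vesicle-like cells, at 3399 and 2961 CPM (−0.20 [−0.22, −0.18]). *Rps29*, another zinc-finger protein of the small subunit, had log2 ratios from −0.44 in neural crest-like cells (5608 and 4132 CPM) to −0.19 in optic vesicle-like cells (4281 and 3755 CPM).

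Of the large subunit, *Rpl38*, whose mutation causes the tail-short phenotype of mice, ran from −0.44 in erythroid-like cells (1697 and 1250 CPM) to −0.20 in ectoderm-like cells (2001 and 1746 CPM). *Rpl36* ran from −0.42 in neural crest-like cells (2980 and 2222 CPM) to −0.24 in optic vesicle-like cells (2706 and 2285 CPM). *Rpl27* ran from −0.41 in neural crest-like cells (1195 and 901 CPM) to −0.26 in erythroid-like cells (1080 and 901 CPM). In each of these members the WT level was the higher one in every class, while *Rpl13* of the same subunit had a log2 ratio of 0.07 over all gated cells.

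**Figure D3:**
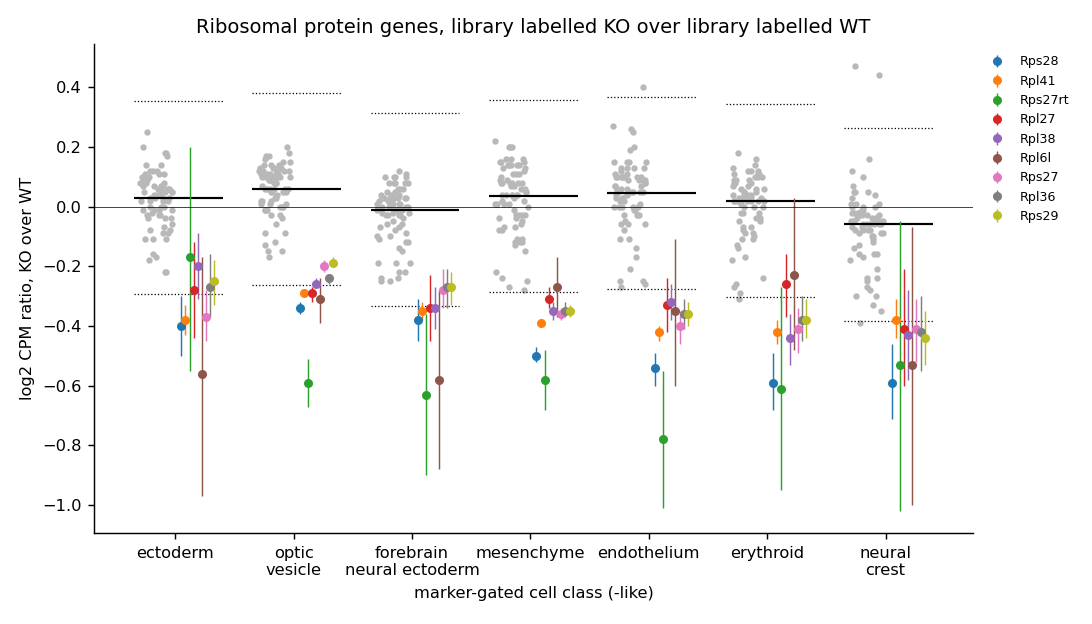
Log2 ratio of CPM, library labelled KO over library labelled WT (y axis), of ribosomal protein genes in 7 marker-gated classes (x axis). Coloured points are the 9 genes outlying in at least 3 classes with their 95% counting intervals, grey points the other members, black lines the median member and dotted lines a log2 distance of 0.32 from it. All coloured points lie below 0 in every class, and the intervals of *Rps27rt* in ectoderm-like and of *Rpl6l* in erythroid-like cells reach above 0.

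In ectoderm-like cells the members farthest below the median were *Rpl6l*, *Rps28* and *Rpl41*, and those farthest above were *Rps19bp1*, *Rpl7* and *Rps14*. *Rpl7* measured 2801 CPM in WT and 3209 CPM in KO, a log2 ratio of 0.20 [0.11, 0.28], and *Rps14* 5698 and 6455 CPM. Close behind was *Rps24*, a Diamond-Blackfan anaemia gene, at 3139 and 3545 CPM, 0.18 [0.09, 0.26]. *Rps19bp1*, which encodes a binding partner of Rps19 and of the deacetylase Sirt1, was at 116 and 138 CPM on 100 and 83 UMIs, and its interval of −0.19 to 0.68 holds 0. None of these members above the median reached the distance set for outlying members.

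The members outlying in fewer than 3 classes were *Rpl23a*, *Rpl39*, *Rpl7l1* and *Rps19bp1*. *Rpl23a* was lower than the median by the set size in erythroid-like cells (3772 and 3050 CPM) and *Rpl39* in neural crest-like cells (4177 and 3193 CPM), and both were lower in KO in 7 of 7 classes. *Rpl7l1* was higher in endothelium-like cells (114 and 150 CPM, log2 ratio 0.40 [0.15, 0.65]) and in neural crest-like cells (0.47 [−0.11, 1.05] on 52 and 52 UMIs). *Rps19bp1* was higher in neural crest-like cells (0.44 [−0.14, 1.03] on 52 and 51 UMIs), and both intervals in neural crest-like cells hold 0.

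The outlying members were mostly those with the shortest mRNAs. By the GENCODE M21 annotation of GRCm38, 7 members had a transcript under 400 nucleotides, *Rps21*, *Rps27*, *Rps27rt*, *Rps28*, *Rps29*, *Rpl36* and *Rpl38*, and 6 of them were among the 9 outlying members. The transcript of *Rps28* had 271 nucleotides, those of *Rps27* and *Rpl38* 345 each, and that of *Rpl41* 437 with a coding part of 75. The 7 short members had a median log2 ratio of −0.29 over all gated cells and lay below 0 in 49 of 49 member-class pairs. The medians of the longer members were −0.01 at 400 to 600 nucleotides (25 members), 0.07 at 600 to 1000 (33 members) and 0.09 at 1000 to 2000 (16 members).

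Ordered by coding length, the 11 members under 300 nucleotides had a median log2 ratio of −0.27 and lay below 0 in 75 of 77 member-class pairs. The Spearman correlation of the log2 ratio with coding length over 83 members was 0.67 over all gated cells and 0.46 to 0.78 in the 7 classes, and with transcript length 0.56 and 0.47 to 0.59. These are descriptions across genes that share both libraries and the same cells.

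Over all gated cells, other short genes were lower too, by less. The 26 other genes with a transcript under 400 nucleotides and at least 100 UMIs had a median of −0.16, and 20 of them were lower in KO. By class this median ran from −0.28 in neural crest-like to −0.02 in ectoderm-like cells, where 6 of 9 were lower. It was −0.05 in forebrain neural ectoderm-like cells, with 6 of 12 lower. The short members had medians of −0.25 in ectoderm-like and −0.28 in forebrain neural ectoderm-like cells. By coding length no such shift was seen, with a median of 0.01 over 238 other genes under 300 nucleotides, and over 11183 other genes the log2 ratio had a Spearman correlation of −0.08 with coding and −0.13 with transcript length. Among the short genes, *Usmg5*, a subunit of the mitochondrial ATP synthase, measured 466 CPM in WT and 357 CPM in KO over all gated cells (log2 ratio −0.38 [−0.42, −0.35]). In ectoderm-like cells its log2 ratio was −0.02 [−0.27, 0.23]. *Rpl27*, with 614 nucleotides, was outlying without being short, and *Rps21*, with 394, was short without being outlying (2246 and 1950 CPM, −0.20). The 2 libraries also differ in embryo, depth and number of cells, and the part of RNA length or library preparation in these differences was not tested.

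**Figure D4:**
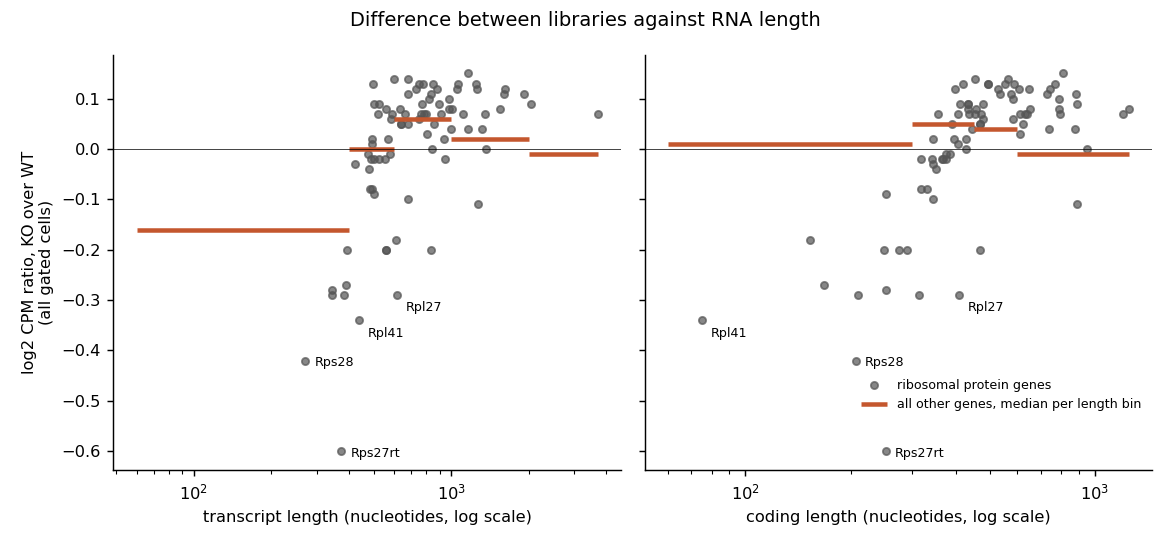
Log2 ratio of CPM, KO over WT, over all gated cells (y axis) against transcript length (left) and coding length (right), both on a log axis in nucleotides. Each grey point is a ribosomal protein gene and each orange line the median of all other genes in a length bin. Members with a transcript under 400 nucleotides lie at a median of −0.29 and other genes of that length at −0.16, whereas by coding length the other genes under 300 nucleotides lie at 0.01.

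Several members share sequence with another, and how reads from such stretches were assigned or left out was not examined. *Rpl6l* is annotated as a processed pseudogene, and its last 200 bases, where 3′ reads fall, were identical to those of *Rpl6*. It measured 179 CPM in WT and 144 CPM in KO over all gated cells (log2 ratio −0.32 [−0.37, −0.26]), while *Rpl6* itself measured 3421 and 3168 CPM (−0.11 [−0.12, −0.10]). *Rps27rt*, a retrocopy with 83.5% identity to *Rps27* over the same stretch, had the lowest ratio of all tested members, at 188 and 125 CPM (−0.60 [−0.65, −0.54]). Both are reported as uncertain for this reason.

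The gene identifiers with pseudogene names that the rule left out were mostly lower in KO, as *Rpl6l* and *Rps27rt* were. Of 16, 12 had at least 100 UMIs over all gated cells, with a median log2 ratio of −0.27 and 9 of 12 lower in KO. The farthest below were *Rpl36-ps3* (−0.54) and *Rpl13-ps3* (−0.42), beside −0.29 for *Rpl36* and 0.07 for *Rpl13*. The farthest above were *Rpl13a-ps1* (0.27 [−0.06, 0.61]) and *Rps2-ps6* (0.11 [−0.24, 0.46]), with intervals that hold 0. *Rpl23a-ps3* was at 384 and 300 CPM (−0.36) and *Rps26-ps1* at 85.0 and 66.2 CPM (−0.36), beside −0.20 for *Rpl23a* and −0.10 for *Rps26*.

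The more divergent paralogs differed little. *Rpl22l1*, a paralog of *Rpl22* with 63.5% identity in the last 200 bases, measured 1817 and 1787 CPM over all gated cells, *Rps27l*, known as a p53-responsive paralog of *Rps27*, 1240 and 1167 CPM, and *Rpl36al* 1008 and 994 CPM. Their log2 ratios of −0.02, −0.09 and −0.02 were smaller than that of *Rps27rt*, and *Rpl22*, the partner of *Rpl22l1*, stood at 1624 and 1609 CPM.

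Members known for a phenotype did not all move one way. Of 9 members with mouse developmental mutants, 7 were higher and 2 lower in KO over all gated cells (median log2 ratio 0.06, beside 0.05 for all members), and the 2 were *Rpl38* (−0.29) and *Rpl22* (−0.01). Of 9 members mutated in Diamond-Blackfan anaemia, an inherited failure of red cell formation, 7 were higher and 2 lower (median 0.09), from *Rps26* at −0.10 to *Rps10* at 0.13. In erythroid-like cells the median of these 9 was −0.02, with 4 higher and 5 lower.

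The 4 X-linked members had log2 ratios of −0.18 (*Rpl39*), −0.08 (*Rpl36a*), 0.07 (*Rpl10*) and 0.10 (*Rps4x*). *Xist*, the RNA of X inactivation, was at 912 and 950 CPM over all gated cells, and the Y-linked *Ddx3y*, *Eif2s3y*, *Kdm5d* and *Uty* had 0 UMIs in both libraries. Both libraries thus held *Xist* and no RNA of these Y-linked genes.

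Genes that work with the ribosome were compared as fixed lists, with the median of all genes at −0.00. The translation factor list held 17 genes, mostly translation factors but also others such as *Npm1*, chosen as having TOP mRNAs. Only 3 of 11 with a start window had the motif at the annotated start. Of the 17, 13 were higher in KO over all gated cells (median log2 ratio 0.05). They ran from *Pabpc1*, the poly(A)-binding protein, and *Npm1* at −0.07 to *Gnb2l1*, the scaffold protein Rack1 of the small subunit, at 0.16 (1434 and 1606 CPM). The range of this list, −0.07 to 0.16, was narrower than that of the members. Of genes for ribosomal proteins fused to ubiquitin or a ubiquitin-like protein, *Fau* was at 2588 and 2592 CPM and *Rps27a* at 5738 and 5947 CPM.

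Ribosome biogenesis genes did not share a direction across the classes. Of 24, 15 were lower in KO and 9 higher over all gated cells (median −0.04), and the farthest were *Rrn3*, an initiation factor of RNA polymerase I, at 26.7 and 18.4 CPM (−0.54 [−0.69, −0.40]), and *Pes1*, of large subunit assembly, at 55.1 and 46.3 CPM (−0.25 [−0.35, −0.15]). *Nop2* (0.16) and *Polr1c* (0.12) were the farthest above. By class, the median was −0.09 in optic vesicle-like (17 of 24 lower) and −0.02 in mesenchyme-like cells (13 of 24 lower), and 0.00 over the 12 genes tested in ectoderm-like cells. It was 0.05 in forebrain neural ectoderm-like (11 of 18 higher), 0.07 in endothelium-like (16 of 23 higher) and erythroid-like (13 of 20 higher) and 0.08 in neural crest-like cells (6 of 8 higher). *Rrn3* was lower in KO in 6 of the 7 classes, with intervals below 0 in optic vesicle-like (−0.56), mesenchyme-like (−0.49) and endothelium-like cells (−0.75).

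Mitochondrial ribosomal proteins, which build the separate ribosome of mitochondria, had 53 of 76 genes higher in KO (median 0.04), from *Mrps27* at −0.25 to *Mrps14* at 0.19. The Myc family, which drives ribosome production, gave *Mycl* at −0.04, *Mycn* at 0.03 and *Myc* at 0.09, and each interval held 0. By the distance used for the members, 0 of the 17 genes of the translation factor list and 0 of the 76 mitochondrial ribosomal proteins lay lower than the median member over all gated cells. Of the 24 biogenesis genes 1 did, *Rrn3*, beside 6.78% of all genes. Within classes, 4 of 24 biogenesis genes lay lower in optic vesicle-like cells (7.53% of all genes). So did 2 of 23 in endothelium-like (12.7%) and 1 of 24 in mesenchyme-like cells (8.4%), and 0 in the other classes. By class, 5 of 48 mitochondrial ribosomal proteins were lower in ectoderm-like (13.7% of all genes) and 5 of 76 in optic vesicle-like cells (7.53%). In neural crest-like cells 4 of 25 were (6.04%), in forebrain neural ectoderm-like 2 of 69 (6.73%) and in endothelium-like 2 of 71 (12.7%). In erythroid-like cells 1 of 68 was (12%), and in mesenchyme-like 0 of 76 (8.4%). Of the translation factor list 1 of 17 was lower in ectoderm-like cells only. Mitochondrial ribosomal proteins higher by this distance numbered 7 of 48 in ectoderm-like (11.2% of all genes) and 7 of 71 in endothelium-like cells (6.67%). They numbered 5 of 69 in forebrain neural ectoderm-like (11.7%), 6 of 68 in erythroid-like (5.54%) and 6 of 25 in neural crest-like cells (22%). In optic vesicle-like and mesenchyme-like cells 0 were higher. Of the biogenesis genes 3 of 23 were higher in endothelium-like cells.

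Among 12 p53 targets, known to respond when ribosome assembly is disturbed, 10 had at least 100 UMIs over all gated cells, and 7 of them were higher in KO (median 0.08). *Cdkn1a*, the cell cycle inhibitor p21, was the farthest, with 60 UMIs in WT and 212 in KO (1.97 and 5.33 CPM, log2 ratio 1.44 [1.02, 1.88]). Of these, 4 and 90 UMIs came from endothelium-like cells, where 4 of 63 WT and 11 of 101 KO cells had a UMI and 1 KO cell held 25. In ectoderm-like cells *Cdkn1a* had 13 and 15 UMIs (0.72 [−0.45, 1.91]). Over all gated cells the other 9 targets lay between *Trp53inp1* at 0.18 and *Ccng1* and *Zmat3* at −0.06, and the intervals of these 3 genes held 0.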

How the data were processed

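The authors made 10x Chromium 3′ libraries (v3 reagents) from trypsin-dissociated ocular tissue of 1 embryo per genotype and counted UMIs on mm10/GRCm38 with Cell Ranger, then combined the libraries with its aggr program, in which reads of the deeper library may be thinned. The deposited values are whole UMI counts per gene and cell, without scaling per cell. Barcodes were kept at 1500 to 8000 genes and up to 5% of UMIs from mitochondrial genes, limits that leave the number of cells the study gives. Classes were gated by the number of detected markers, at least 0.5 of each list and fewer for forebrain neural ectoderm, thresholds set after marker detection was seen. Cells with several gates or macrophage markers were left out, and no doublet caller was run.

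Counts were summed per class and library and given as CPM. There was 1 library per genotype, so no test was made. Intervals are exact at 95% (Clopper-Pearson for shares, conditional binomial for ratios) and do not cover biological or library variation. Ratios needed 100 UMIs over both libraries. The step that computes ratios and intervals was tested on simulated counts. Named genes were mainly the 5 highest members, those outlying in 3 or more classes, the 3 farthest each way in ectoderm-like cells, members differing between classes, paralogs and *Rplp0*. Of each list, up to 2 of the farthest each way were named, and for some lists fewer. The members, marker lists and gene lists were chosen with earlier results of these data known. Lengths and positions are from GENCODE M21 (GRCm38), all 87 members matched by gene identifier, and start windows from RefSeq (GRCm38.p6). Values of some genes are not reported here. Alternatives changed the cells, the gates, the denominator, the summary over cells, the members, the depth, the count minimum and the size called. Python 3.11.15, numpy 2.4.6, scipy 1.17.1, pandas 2.3.3, matplotlib 3.10.9 and edlib 1.3.9.post1 were used.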

Additional observations from a re-analysis of the deposited data

Results flagged for a closer look

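The share of UMIs on ribosomal protein genes differed between KO and WT in opposite directions in different classes. KO minus WT was 0.958 percentage points in optic vesicle-like cells, and −1 in forebrain neural ectoderm-like, −0.241 in mesenchyme-like, −0.254 in endothelium-like, −0.421 in erythroid-like and −2.41 in neural crest-like cells. With 1 library per genotype, the difference between the classes was not tested.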

How the results depend on the processing

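Of 7 classes, 1 had a higher share in KO as reported, and 2 did with all deposited barcodes, the second being ectoderm-like cells at 0.26 points. The same 9 members were outlying in 3 or more classes with all barcodes, with 1 more marker per gate and with a minimum of 30 UMIs. So they were with mitochondrial, globin and member UMIs left out of the total. At a distance of 1.5-fold 1 of them remained, *Rps27rt*, the retrocopy of *Rps27* that is reported above as uncertain. No member was 2-fold apart in a class in both libraries as reported. With the denominator without mitochondrial, globin and member UMIs it was 1, and at 1.5-fold, chosen after seeing the data, it was 10, or 28 with that denominator. Against the other gated cells, the share difference of WT ectoderm-like cells turned to 0.13 points by the median over cells. That of WT forebrain neural ectoderm-like cells turned to −0.25 without mitochondrial and globin UMIs in the total and −0.38 by the median. Without mitochondrial and globin UMIs in the total, that of erythroid-like cells turned to 8.48 in WT and 7.81 in KO. Among the values of single classes, 104 recomputed values stayed within tolerance (counting error for shares, 0.02 for log2 medians, 1.5 times for counts) and 66 moved further without a turn in direction beyond counting error. No paired analysis was possible because each genotype has 1 library, and for the same reason no replicate could be left out. Depth limited values under 100 UMIs over both libraries. This left 84 of 87 members in each class, but 8 of 24 biogenesis genes in neural crest-like cells and 1 of 12 p53 targets in ectoderm-like cells. Some paralogs and suffix genes passed on few UMIs in neural crest-like cells. Genotype, embryo, library and number of cells cannot be told apart.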

Other observations

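Across single erythroid-like cells, the share of ribosomal protein UMIs had a Spearman correlation of −0.51 with the cell's total UMIs over 36 WT cells and of −0.11 over 50 KO cells. The same correlation was 0.07 and 0.21 in optic vesicle-like cells and 0.22 and 0.39 in forebrain neural ectoderm-like cells. The total is the denominator of the share, so these values describe the cells only. Globin genes made up 0.0198% of the UMIs of optic vesicle-like cells in WT and 0.0418% in KO, and 0.0178% and 0.0410% in ectoderm-like cells.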
